A study of Mus musculus with 12 samples.

Results

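The genes described are those of the translation initiation factors eIF1 to eIF6 and of the elongation factors eEF1 and eEF2. They were chosen by name: protein-coding symbols beginning Eif1 to Eif6, Eef1 or Eef2, without the kinases, binding proteins and methyltransferases that share those prefixes. No measured value entered the rule, although earlier results of these data were known when the choice was made. The rule took 54 of the 28987 genes in the table. They comprise 5 genes named for eIF1, 6 for eIF2, 5 for eIF2B, 14 for eIF3, 12 for eIF4, 4 for eIF5, 1 for eIF6, 6 for eEF1 and 1 for eEF2. Of these, 51 had at least 1 TPM (a gene's share of a library's transcripts, corrected for its length) in at least 2 libraries and were tested in every comparison. The other 3 were Eef1a2, the muscle and neuron form of eEF1A, at 0 TPM in 11 libraries and 0.0461 TPM in the last, the Y-linked Eif2s3y at 0 to 0.267 TPM, and Eif5a2 at 0.289 to 1.30 TPM. Eif4e3 was not analysed here.

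The levels come from RNA sequencing of 12 bone marrow libraries of C57BL/6 mice, 2 in each of 6 groups. In 4 groups the cells were haematopoietic stem and progenitor cells (HSPC), taken by selection for CD117, the receptor Kit: CBL mutant, RUNX1 mutant, CBL/RUNX1 mutant (called double mutant below) or wild type. In the other 2 groups, wild type and double mutant, they were Ly6G+ myeloid cells, sorted on a surface protein of maturing neutrophils. The labels state that marrow was taken from single mice and that the mutant clone was sorted, and they name neither the alleles, the way the mutations were introduced, the age of the mice, nor whether HSPC and Ly6G+ cells of one number share a mouse. Where the 2 libraries of a group do not come from separate mice, the p-values measure only technical spread. Levels below are scaled TPM, the deposited TPM divided by 1 factor per library (0.709 to 1.5) so that most genes match between libraries. Fold changes are differences of log2(scaled TPM + 1), and a gene is called when its limma p-value, with Benjamini-Hochberg adjustment across every tested gene, is under 0.05. In such bulk samples, fewer cells of a type and less RNA per cell cannot be told apart.

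Protein synthesis begins when eIF2, carrying GTP and the initiator methionyl-tRNA, joins the small ribosomal subunit together with eIF1, eIF1A, eIF3 and eIF5. The eIF4F complex (the cap-binding protein eIF4E, the scaffold eIF4G and the helicase eIF4A) brings the mRNA, and eIF5B joins the large subunit. The exchange factor eIF2B reloads eIF2 with GTP, and stress kinases that phosphorylate eIF2 act by blocking eIF2B. In elongation, eEF1A delivers aminoacyl-tRNA, the eEF1B subunits recharge it, and eEF2 moves the ribosome along. In marrow, haematopoietic stem cells are known for a low rate of protein synthesis, and neutrophils shut down much of their ribosome production as they mature.

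The promoters of these genes (250 bases before to 50 after each RefSeq start, GRCm38.p6) were searched on both strands for 3 short words, because RUNX1 is one of the mutated factors and because the genes move together in the comparisons below. The RUNX word TGTGGT occurred in 6 of the 43 genes matched to a promoter (14%), and in 17.2% of 17492 protein-coding genes. The ETS word CCGGAAG, the core bound by ETS family factors, occurred in 15 of 43 (34.9%), against 12.9% of all. The E-box CACGTG, bound by MYC and USF factors, occurred in 11 of 43 (25.6%), against 8.91% of all. The ETS word was added after some of these sequences had been seen. No word contains another. A match is a description of these letters and not evidence of binding. The following 60-base windows show examples of each word, in capitals, that lie before the RefSeq start and outside every exon of the GENCODE annotation. They are written 5′ to 3′ on the strand of the gene.
Eef2 (E-box, chr10:81176561-81176620, plus strand): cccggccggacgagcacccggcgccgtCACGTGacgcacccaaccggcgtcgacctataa
Eif4a1 (E-box, chr11:69672580-69672639, minus strand): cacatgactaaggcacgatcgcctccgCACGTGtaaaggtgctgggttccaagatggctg
Eif3f (E-box, chr7:108934320-108934379, plus strand): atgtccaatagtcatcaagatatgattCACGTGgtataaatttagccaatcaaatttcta
Eef1e1 (RUNX, chr13:38659142-38659201, minus strand): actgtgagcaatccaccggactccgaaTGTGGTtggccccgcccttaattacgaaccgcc
Eif3a (RUNX, chr19:60790788-60790847, minus strand): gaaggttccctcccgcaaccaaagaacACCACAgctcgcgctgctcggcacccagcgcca
Eif1ax (ETS, chrX:159371940-159371999, plus strand): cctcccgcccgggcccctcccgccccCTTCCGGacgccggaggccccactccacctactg
Eif3d (ETS, chr15:77970861-77970920, minus strand): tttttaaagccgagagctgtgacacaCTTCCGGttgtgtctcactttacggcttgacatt
In Eif3a the RUNX word, and in Eif1ax and Eif3d the ETS word, stand as the reverse complement, ACCACA and CTTCCGG.

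Several facts of the libraries bear on what follows. The targeted genes were read at higher TPM in the libraries labelled mutant for them: Cbl at 73.7 to 115 TPM in CBL and double mutant HSPC against 17.9 to 32.1 in the other HSPC libraries, and Runx1 at 45.3 to 257 TPM in RUNX1 and double mutant HSPC against 11.3 to 16.4. In Ly6G+ cells, double mutant libraries had 144 and 124 TPM of Cbl and 126 and 142 of Runx1, against at most 44.95 and 11.1 in wild type. The RUNX1 mutant HSPC and the double mutant Ly6G+ replicates differed most from each other, with an SD over all genes of 0.709 and 0.998 log2 units between replicates, against 0.301 to 0.376 in the other groups. S100a8 and S100a9, abundant messages of neutrophils, together took 28.9% and 31.4% of all TPM in the wild type HSPC libraries. Their share ranged from 7.23% to 34.5% over the 12 libraries. The 8 stem and progenitor markers summed to 162 and 171 scaled TPM in wild type HSPC and to 74 and 68 in wild type Ly6G+ cells, and none of them, nor any of the 9 neutrophil markers, was at 0 in any library.

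The translation factor genes together held 0.523% to 2.12% of a library's TPM. On the scaled values their sum was 10393 and 11666 in wild type HSPC, 13783 and 14870 in double mutant HSPC, and 6676 and 6525 in wild type Ly6G+ cells. The double mutant Ly6G+ libraries were far apart, at 13160 and 8184. Eef1a1, which delivers aminoacyl-tRNA to the ribosome, had the highest level of the family in all 12 libraries and alone made up 30.6% to 47.2% of the family's TPM. Eif4e1b, an oocyte form of the cap-binding protein, was at 1.34 to 5.39 scaled TPM, near the low end of the tested genes.

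**Figure D1:**
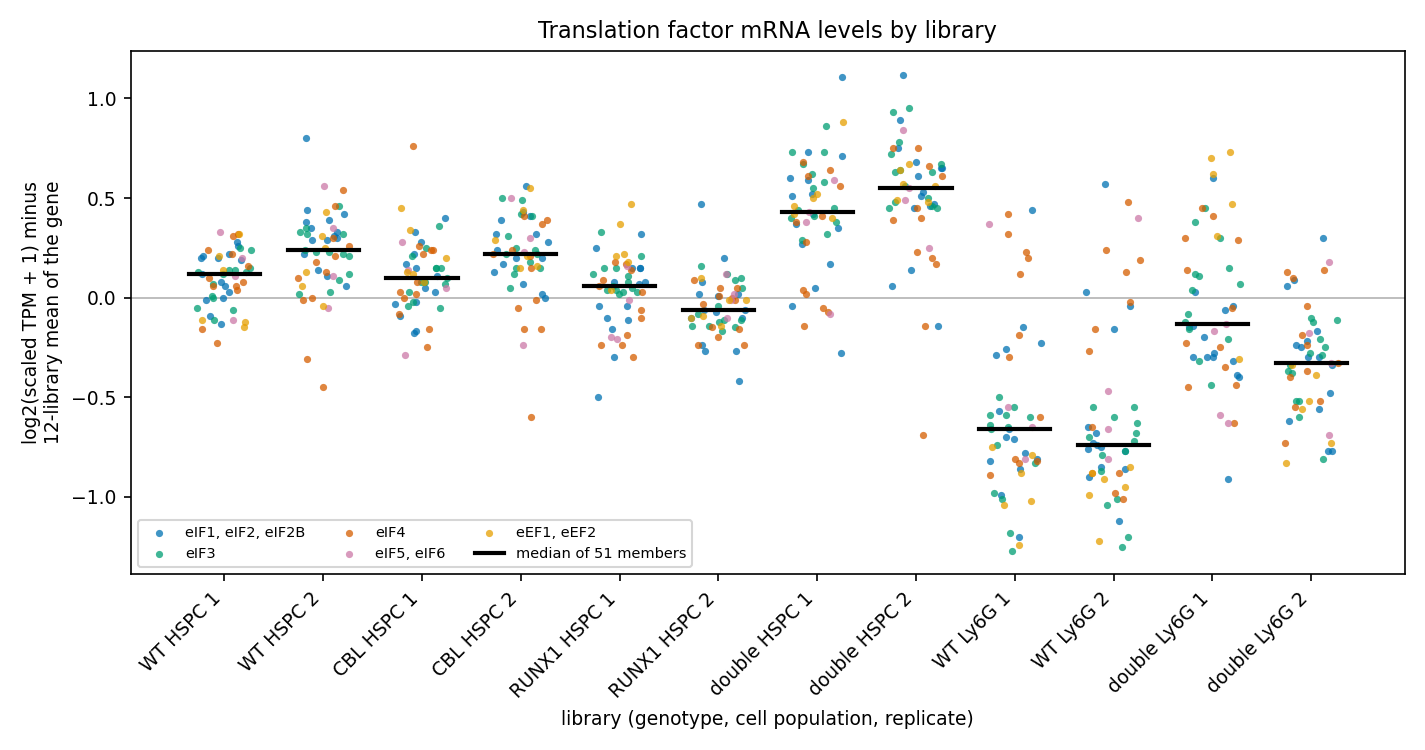
Each point is 1 of 51 translation factor genes in 1 library, as log2(scaled TPM + 1) minus the mean of that gene over 12 libraries, coloured by factor. Black bars are medians. They lie at -0.66 and -0.74 in wild type Ly6G+ cells and at 0.43 and 0.55 in double mutant HSPC.

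The plot of levels by library shows the main pattern. Relative to the mean of each gene over the 12 libraries, the median of the 51 genes was 0.12 and 0.24 log2 units in wild type HSPC, 0.10 and 0.22 in CBL mutant HSPC, and 0.06 and -0.06 in RUNX1 mutant HSPC. It was 0.43 and 0.55 in double mutant HSPC, -0.66 and -0.74 in wild type Ly6G+ cells, and -0.13 and -0.33 in double mutant Ly6G+ cells. The double mutant medians thus lay above the wild type medians in both cell populations.

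Between the wild type populations, most initiation factor genes were lower in Ly6G+ cells than in HSPC. Of 51 genes, 34 were called lower and 1 higher, where 22.7% of all 13155 genes tested were called lower and 16.4% higher. The median log2 fold change was -0.84, against -0.08 over all genes. Both Ly6G+ libraries lay below both HSPC libraries for 44 genes (45.7% of all genes) and above them for 5 (38.6% of all genes). The fall covered eIF3, eIF2, eIF2B and the eIF4F core, whereas several eIF4 and start-site factors were not called. Over the same comparison the neutrophil markers summed to 385316 and 487264 scaled TPM in HSPC and to 504072 and 504420 in Ly6G+ cells. Of the 9, 3 were called higher. The median fold change of this list was 0.93, with 7 positive and 2 negative, from -0.29 to 5.01. S100a8 and S100a9 held most of the sum. Retnlg, at the other end, went from 496.5 and 529.8 TPM in HSPC to 17340 and 16830 in Ly6G+ cells. B and plasma cell markers summed to 1559 and 1723 in HSPC and to 630 and 511 in Ly6G+ cells, with 2 of 7 called higher. Their median fold change was 0.83, with 5 positive and 2 negative. Jchain held most of the sum, at 1204 and 1138 TPM in HSPC and 346.3 and 293.2 in Ly6G+ cells. T and NK cell markers summed to 219 and 260 against 39 and 40, with 2 of 5 called higher and 1 lower. Their median was 1.26, with 4 positive and 1 negative, and Nkg7 went from 178.5 and 179.5 TPM to 18.14 and 16.92. The part of the mix of cells in these differences was not tested.

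**Figure D2:**
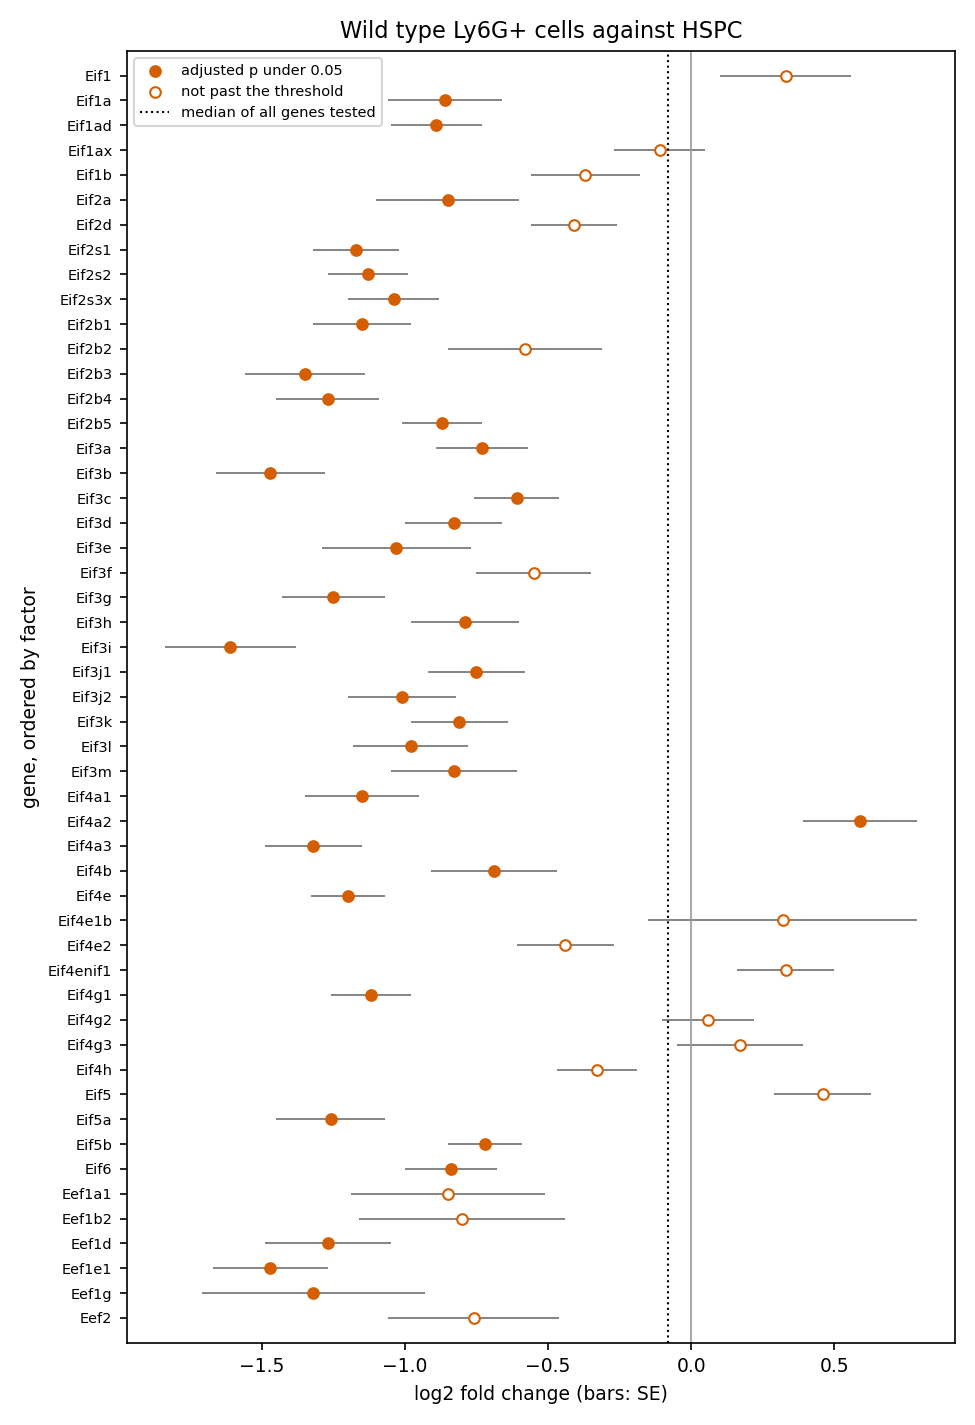
Log2 fold change of each of 51 genes in wild type Ly6G+ cells against wild type HSPC, with its standard error, in the order of the factors. Filled points passed an adjusted p of 0.05. All 14 eIF3 genes lie left of 0, and Eif4a2 is the 1 filled point on the right.

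Of the 5 tested genes named for eIF2, 4 were called lower. Eif2s1, Eif2s2 and Eif2s3x make the complex that carries the initiator tRNA, and Eif2a is a separate factor. Eif2s1, the subunit that stress kinases phosphorylate, was at 36.1 and 41.6 scaled TPM in wild type HSPC and at 17.1 and 16.1 in wild type Ly6G+ cells. The Ly6G+ values lay below those of all 8 HSPC libraries, and the wild type difference was -1.17 ± 0.15 log2 units (SE, adjusted p = 0.00107). Eif2s2, the β subunit, was at 75.7 and 86.3 scaled TPM in wild type HSPC and at 35.3 and 37.2 in wild type Ly6G+ cells, a difference of -1.13 ± 0.14 (adjusted p = 0.00105). The gene not called was Eif2d, a factor for recycling and reinitiation and no subunit of eIF2, at -0.41 ± 0.15 (adjusted p = 0.0573).

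Of the 5 genes for the exchange factor eIF2B, 4 were called lower, and the median of the group was -1.15. Eif2b5, the catalytic subunit, was at 17.3 and 17.6 scaled TPM in wild type HSPC and at 9.13 and 9.15 in wild type Ly6G+ cells. Eif2b2, a subunit of the regulatory core, was not called, at -0.58 ± 0.27 (adjusted p = 0.115). For all 5 genes the wild type libraries of the populations did not overlap.

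eIF3 is the large scaffold that holds the small subunit, the mRNA and other factors together, and 13 of its 14 genes were called lower. Eif3b, a core subunit, was at 97.6 and 103 scaled TPM in wild type HSPC and at 35.7 and 35.1 in wild type Ly6G+ cells, a difference of -1.47 ± 0.19 (adjusted p = 0.00108). Eif3i, which binds next to it, was at 122 and 143 against 42.1 and 42.8, a difference of -1.61 ± 0.23 (adjusted p = 0.00155). No member of the family had a lower fold change than Eif3i. Eif3a, the largest subunit, was at 96.1 and 89.1 scaled TPM in wild type HSPC and at 57.0 and 54.0 in wild type Ly6G+ cells. The gene not called was Eif3f, at -0.55 ± 0.20 (adjusted p = 0.0554), and the group median was -0.83. Eif3j1 and Eif3j2 are near-identical copies whose reads may be divided between them.

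In the cap-binding complex eIF4F, the genes for all 3 parts were called lower. Eif4e (chromosome 3, 138526179 to 138559696 on the GRCm38 annotation), the cap-binding protein, had the smallest p of the family: it was at 44.4 and 51.9 scaled TPM in wild type HSPC and at 20.6 and 19.9 in wild type Ly6G+ cells. The difference was -1.20 ± 0.13 (adjusted p = 0.000651), and none of the other 6 HSPC libraries was under 37.8. Eif4g1, the scaffold, was at 138 and 129 scaled TPM in wild type HSPC and at 62.3 and 59.8 in wild type Ly6G+ cells, a difference of -1.12 ± 0.14 (adjusted p = 0.00115). The helicase Eif4a1 was at 485 and 558 scaled TPM in wild type HSPC and at 244 and 225 in wild type Ly6G+ cells. Eif4a3, a related helicase of the exon junction complex, was at 136 and 161 against 62.5 and 55.3, a difference of -1.32 ± 0.17 (adjusted p = 0.00108).

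Not all genes of the group shared this direction, and over the 12 eIF4 genes 5 were called lower and 1 higher. Eif4a2 (chromosome 16, 23107444 to 23114136), a paralogue of Eif4a1 linked to mRNA repression, was at 153 and 125 scaled TPM in wild type HSPC and at 214 and 203 in wild type Ly6G+ cells. The libraries did not overlap, and the difference was 0.59 ± 0.20 (adjusted p = 0.0443), a call lost in 9 of 21 alternative settings, among them unscaled TPM and leaving out either library of either wild type group, with adjusted p from 0.00264 to 0.242 over them. Eif4enif1, which binds eIF4E and holds it off translation, was at 42.3 and 49.8 in HSPC and at 58.6 and 57.0 in Ly6G+ cells, 0.33 ± 0.17 (adjusted p = 0.149). The scaffolds Eif4g2 and Eif4g3 differed by 0.06 ± 0.16 and 0.17 ± 0.22, with overlapping libraries.

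Of the 5 genes named for eIF1, 2 were called lower, Eif1a and Eif1ad. Eif1ad was taken by its name and is not a start-site factor. Eif1, which guards start codon choice, was at 425 and 502 scaled TPM in wild type HSPC and at 557 and 609 in wild type Ly6G+ cells, 0.33 ± 0.23 (adjusted p = 0.281). Eif5, which makes eIF2 hydrolyse its GTP at the start codon, was at 107 and 112 against 149 and 152, 0.46 ± 0.17 (adjusted p = 0.0635). For both genes the Ly6G+ values lay above the HSPC values, the opposite side from most of the family. Eif5b, the subunit joining factor, was called lower (-0.72 ± 0.13, adjusted p = 0.00417), and so was Eif6, which keeps free large subunits apart from small ones (-0.84 ± 0.16, adjusted p = 0.00471). Eif5a, an elongation and termination factor despite its name, was at 1008 and 1178 scaled TPM in wild type HSPC and at 455.3 and 455.2 in Ly6G+ cells (-1.26 ± 0.19, adjusted p = 0.00209).

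The eEF1 genes had a median of -1.27, with 3 of 5 called lower, and several elongation factor genes had larger errors than most initiation factor genes. Eef1a1 was at 3371 and 3904 scaled TPM in wild type HSPC and at 2043 and 1994 in wild type Ly6G+ cells, -0.85 ± 0.34 (adjusted p = 0.0782). Eef2, the translocase, was at 627 and 658 against 390.4 and 368, -0.76 ± 0.30 (adjusted p = 0.0755). Neither was called, although for both genes the libraries did not overlap. Eef1e1, a partner of the aminoacyl-tRNA synthetase complex, was at 31.3 and 34.02 scaled TPM against 10.0 and 12.4, -1.47 ± 0.20 (adjusted p = 0.00135). The called genes were Eef1e1, Eef1d and Eef1g. The SE here is pooled over all 6 groups, in which the double mutant Ly6G+ libraries stood at 6213 and 2966 for Eef1a1.

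The count of 35 called genes in this comparison was 18 with unscaled TPM, all lower and all among the 35. It was 23 without the second wild type HSPC library and 46 without the first RUNX1 mutant HSPC and the first double mutant Ly6G+ library together, a setting chosen after seeing the data. Unscaled TPM left the median of the family at -0.79 and that of all genes at -0.04, and turned the split of all called genes from 2158 higher and 2980 lower to 1919 and 1277.

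Ratios of related genes within a library do not depend on the scaling between libraries. Such ratios were computed for 7 pairs and are given as a description with no test, since their separation between populations was seen first. Means are over the wild type and double mutant libraries, 4 of each population. Between related genes, reads that fit both transcripts were divided by estimation, so a ratio may be shifted alike in all libraries.

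For the helicases, the ratio Eif4a2/Eif4a1 was 0.315 and 0.224 in wild type HSPC and 0.212 and 0.215 in double mutant HSPC. In Ly6G+ cells it was 0.877 and 0.899 for the wild type libraries, and 0.520 and 0.535 for the double mutant ones. All 4 Ly6G+ libraries thus lay above the 4 HSPC libraries, with the double mutant ones between the wild type ones and HSPC (mean difference 1.52 log2 units). The single mutant HSPC libraries, which are not in the mean, were at 0.261 to 0.384.

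The scaffold pairs went the same way. Eif4g2/Eif4g1 was 2.14 and 2.19 in wild type HSPC, 1.71 and 1.71 in double mutant HSPC, 5.23 and 4.68 in wild type Ly6G+ cells and 3.87 and 4.02 in double mutant Ly6G+ cells. Eif4g2 encodes a scaffold that lacks the eIF4E binding site of Eif4g1, and its ratio was 1.20 log2 units higher in Ly6G+ cells, with no overlap. Eif4g3/Eif4g1 was 1.19 log2 units higher and Eif1ax/Eif1a 0.74 higher, and Eif1b/Eif1 was 0.55 lower (difference -0.55), each with no overlap. For Eif4a3/Eif4a1 and Eif4e2/Eif4e the libraries overlapped, with differences of -0.29 and 0.44.

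**Figure D3:**
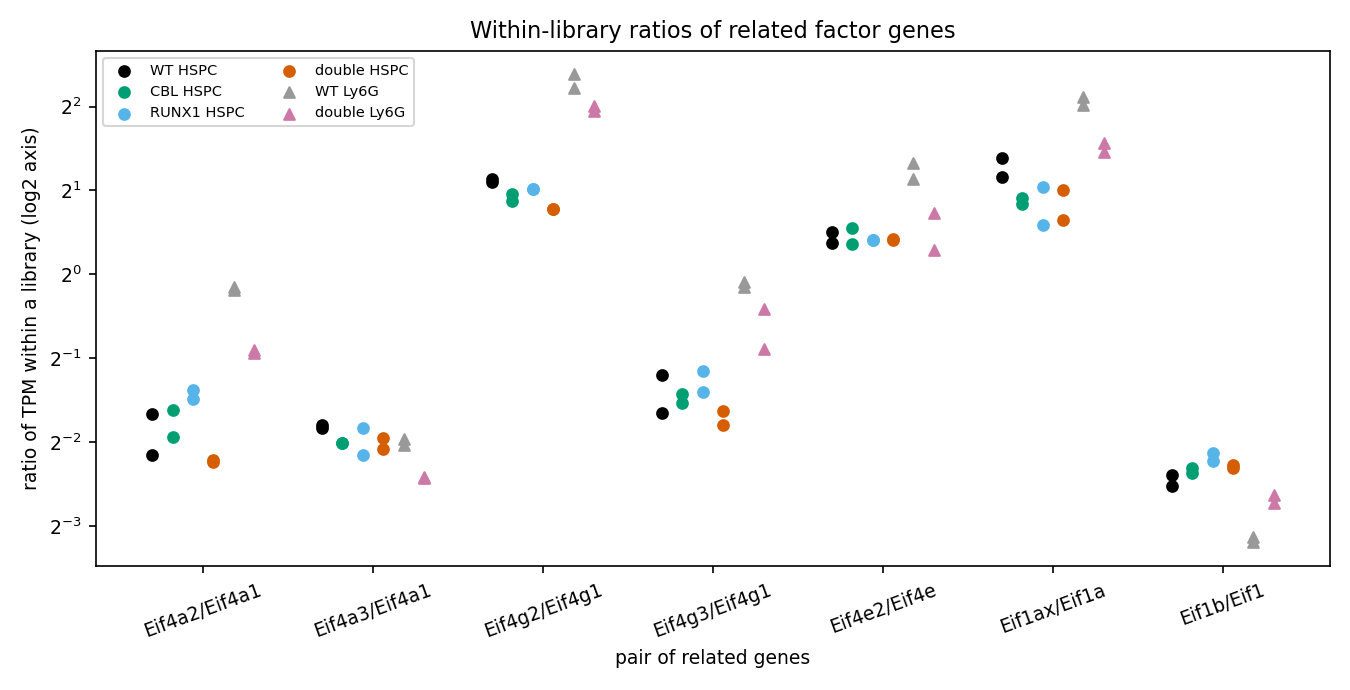
Ratio of TPM of related genes within each of the 12 libraries, on a log2 axis. Circles are HSPC and triangles are Ly6G+ libraries, coloured by group (genotype and cell population together). For Eif4a2/Eif4a1 and Eif4g2/Eif4g1 every triangle lies above every circle.

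The genes that departed most from the rest of the family were few. For the 49 genes at 5 TPM or more in every library, log2 TPM was taken minus the mean over these genes in that library. Each gene's mean over the 12 libraries was then subtracted, and the SD over the 12 libraries was computed. Its median was 0.25 log2 units over all 49 and 0.16 over the 14 eIF3 genes. Eif1 had an SD of 0.64, Eif4a2 of 0.57 and Eif5 of 0.54. Relative to the family and to its own mean, Eif1 stood at 1.05 and 1.21 log2 units in wild type Ly6G+ cells. In double mutant HSPC it stood at -0.71 and -0.67.

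In double mutant HSPC against wild type HSPC, most translation factor genes had a modestly higher value, and few were called. Of 51 genes, 2 were called higher and 0 lower, where 4.56% of 12421 genes tested were called higher and 6.54% lower, so the number called higher is no more than the share over all genes gives. Both called genes encode subunits of the exchange factor eIF2B. At an unadjusted p under 0.05 there were 28. The log2 fold change was positive for 46 genes, with a median of 0.32 against 0.02 over all genes. Both double mutant libraries lay above both wild type libraries for 41 genes (36.6% of all genes) and below them for 3 (34.5% of all genes).

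Eif2b3 (chromosome 4, 117019402 to 117087306), which pairs with the catalytic subunit of eIF2B, was at 10.1 and 13.6 scaled TPM in wild type HSPC, 12.98 and 12.86 in CBL mutant, 11.4 and 8.24 in RUNX1 mutant and 23.0 and 23.2 in double mutant HSPC. The double mutant difference from wild type was 0.92 ± 0.19 (adjusted p = 0.0332). Eif2b1 (chromosome 5, 124570213 to 124579131), the subunit through which eIF2B senses phosphorylated eIF2, was at 31.8 and 35.9 in wild type, 30.5 and 30.9 in CBL mutant, 28.8 and 31.5 in RUNX1 mutant and 45.5 and 51.6 in double mutant HSPC. The difference was 0.51 ± 0.13 (adjusted p = 0.0471). For both genes the double mutant libraries lay above the other 6 HSPC libraries. The other 3 subunits were not called: Eif2b5 at 0.23 ± 0.13, Eif2b2 at 0.25 ± 0.26 and Eif2b4 at -0.11 ± 0.18.

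All 14 eIF3 genes had a positive fold change, from 0.14 to 0.62 with a median of 0.45, and none passed the threshold, although 11 had an unadjusted p under 0.05. Eif3b was at 97.6 and 103 scaled TPM in wild type HSPC and at 149.7 and 160.1 in double mutant HSPC, 0.62 ± 0.16 (adjusted p = 0.0512). Eef2 was at 627 and 658 in wild type HSPC and at 930.4 and 998 in double mutant HSPC, 0.58 ± 0.16 (adjusted p = 0.0575). Eif1 was on the other side, at 425 and 502 in wild type HSPC and at 336 and 371 in double mutant HSPC, -0.39 ± 0.16 (adjusted p = 0.14), a direction that turned to 0.25 with unscaled TPM.

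**Figure D4:**
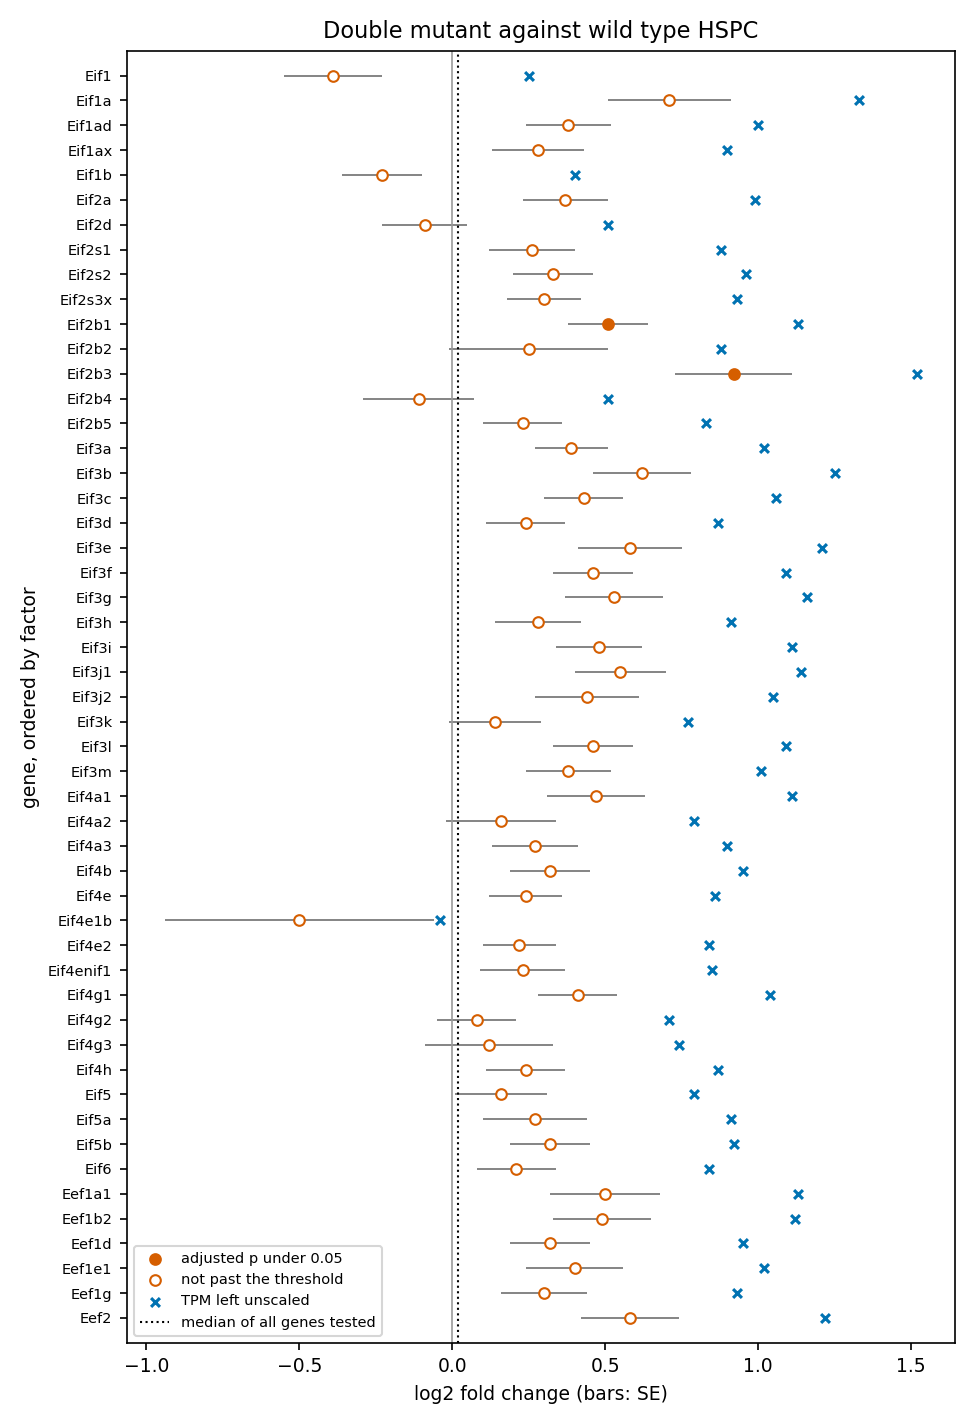
Log2 fold change of each of 51 genes in double mutant against wild type HSPC, with its standard error. Filled points (Eif2b1 and Eif2b3) passed an adjusted p of 0.05, and crosses give the fold change with TPM left unscaled. The crosses lie to the right of the circles for all genes.

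These calls depend on the scaling and on single libraries. With unscaled TPM the median of all genes moved from 0.02 to 0.56 and that of the family from 0.32 to 0.93, so that 45 members were called higher and the split of all genes went from 566 higher and 812 lower to 3965 and 417. The family's median stood above that of all genes by 0.30 with scaling and by 0.37 without. No member was called when any wild type, CBL mutant or double mutant HSPC library was left out, and 22 or 21 were called without the first or second RUNX1 mutant library. S100a8 and S100a9 took 8.11% and 9.54% of the TPM in double mutant HSPC against 28.9% and 31.4% in wild type. The neutrophil markers summed to 69400 and 86909 scaled TPM in double mutant HSPC, and 7 of 9 were called lower. The stem and progenitor markers summed to 444 and 368 against 162 and 171, with 1 of 8 called higher. B and plasma cell markers summed to 28 and 22 scaled TPM against 1559 and 1723, with 3 of 6 called lower. T and NK cell markers summed to 9 and 10 against 219 and 260, with 1 of 4 called lower. Nkg7 held nearly all of that wild type sum, at 178.5 and 179.5 TPM, against 9.29 and 9.25 in double mutant HSPC. Tcf7 was at 1.94 and 1.89 TPM in wild type HSPC, and Lck at 1.11 and 1.98. Monocyte markers summed to 513 and 563 against 197 and 219, with 1 of 5 called higher. Their median fold change was 0.62, with 4 positive and 1 negative. F13a1 held most of the double mutant sum, at 385.2 and 505.6 TPM against 77.93 and 70.85 in wild type. Cx3cr1 was lower, at 2.07 and 0.471 TPM against 3.16 and 2.99. The part of these shifts in the result was not tested.

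The comparisons of the double mutant with the single mutants ask what the combination adds, and they share the double mutant libraries with the comparison above. Against CBL mutant HSPC, 1 member was called higher and 0 lower, where 1.47% of all genes were called higher and 2.21% lower. It was Eif2b1, at 0.64 ± 0.13 (adjusted p = 0.045), a call lost in 8 of 17 alternative settings (adjusted p from 0.00758 to 0.287). In the same comparison 4 of 4 T and NK cell markers tested were called lower, with a median of -4.06, and their sum was 9 and 10 scaled TPM in double mutant against 235 and 309 in CBL mutant HSPC. The neutrophil markers had a median of -2.31 with 1 of 9 called lower, and 1 of 6 B and plasma cell markers was called lower and 1 of 5 monocyte markers higher. The part of these markers in the result was not tested. The family's median was 0.33, against 0.02 over all genes, and 24 members had an unadjusted p under 0.05. Both double mutant libraries lay above both CBL mutant libraries for 43 members (34.2% of all genes) and below them for 0 (30.4% of all genes).

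Against RUNX1 mutant HSPC, 23 of 51 members were called higher and 0 lower, where 5.89% of all genes were called higher and 3.2% lower. The median was 0.48, against -0.02 over all genes, and the libraries did not overlap for 43 members, all above (28.5% of all genes, with 25.5% below). The called genes spanned the roles: 8 of 14 for eIF3, 5 of 12 for eIF4, 3 of 5 for eIF2, 2 of 5 for eIF2B, 2 of 5 for eIF1, 1 of 3 for eIF5 and 2 of 5 for eEF1. Eif2b3 differed by 1.17 ± 0.19 (adjusted p = 0.0217). Eif2s2 was at 59.0 and 60.2 scaled TPM in RUNX1 mutant and at 96.6 and 107 in double mutant HSPC, 0.76 ± 0.13 (adjusted p = 0.0261). Eif5a was at 696 and 796 against 1207 and 1431, 0.82 ± 0.17 (adjusted p = 0.0367).

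Among the called eIF3 genes, Eif3b was at 95.4 and 74.5 scaled TPM in RUNX1 mutant and at 149.7 and 160.1 in double mutant HSPC, 0.87 ± 0.16 (adjusted p = 0.0282). Eif3i was at 112 and 115 against 172.5 and 197.4, 0.69 ± 0.14 (adjusted p = 0.0332). The remaining genes with the smallest p were Eif2b1 (0.67), Eif1ad (0.69) and Eef1e1 (0.76). In each of these cases both double mutant libraries lay above both RUNX1 mutant libraries. Eef1a1 and Eef2 were not called, at 0.27 ± 0.18 and 0.22 ± 0.16.

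The count of 23 rests on the libraries that set the spread. It was 0 when any wild type, CBL mutant or double mutant library was left out, 31 or 20 without the first or second RUNX1 mutant library, 2 with unscaled TPM, and 0 in a fit of the compared groups alone. Neutrophil markers summed to 107221 and 325111 scaled TPM in the RUNX1 mutant libraries against 69400 and 86909 in the double mutant, and 1 of 9 was called lower. Stem and progenitor markers summed to 949 and 252 against 444 and 368, with none of 8 called (0 at an unadjusted p under 0.05). Among the others, 1 of 6 B and plasma cell markers was called lower and 1 of 5 monocyte markers higher. Their part in the result was not tested.

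Neither single mutant had a called member against wild type HSPC. In CBL mutant HSPC the count was 0 in both directions, with 0 at an unadjusted p under 0.05, where 0.314% of all genes were called higher and 0.242% lower. The family's median was -0.02, the same as for all genes, and 0.40 with unscaled TPM, where that of all genes was 0.33. The smallest p-values were for Eif1a, 0.36 ± 0.20 (adjusted p = 0.554), and Eef1g, 0.25 ± 0.14 (adjusted p = 0.559). Eif1a was at 28.04 and 33.25 scaled TPM in wild type and at 37.6 and 41.7 in CBL mutant HSPC. In the same comparison 3 of 4 T and NK cell markers were called higher and 1 of 6 B and plasma cell markers lower. The B and plasma cell markers summed to 67 and 59 scaled TPM in CBL mutant HSPC against 1559 and 1723 in wild type. The part of these markers in the result was not tested.

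In RUNX1 mutant HSPC no member was called either, and 7 had an unadjusted p under 0.05, where 0.00805% of all genes were called higher and 0.0403% lower. The median was -0.17, against -0.03 over all genes, but with unscaled TPM it turned to 0.37, against 0.45. Both RUNX1 mutant libraries lay below both wild type libraries for 28 members (27% of all genes) and above them for 2 (22.1% of all genes). Eif1 was at 288 and 338 scaled TPM against 425 and 502 in wild type, -0.56 ± 0.16 (adjusted p = 0.234), and -0.02 (adjusted p = 0.948) with unscaled TPM. Eif2s2 was at 59.0 and 60.2 against 75.7 and 86.3, -0.43 ± 0.13 (adjusted p = 0.245), and turned to 0.11 (adjusted p = 0.659) with unscaled TPM. Of the 8 stem and progenitor markers 0 were called, but 7 had an unadjusted p under 0.05, as did 2052 of 12421 genes. These markers summed to 949 and 252 scaled TPM against 162 and 171 in wild type. Neutrophil markers summed to 107221 and 325111 against 385316 and 487264. Their part in the result was not tested.

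**Figure D5:**
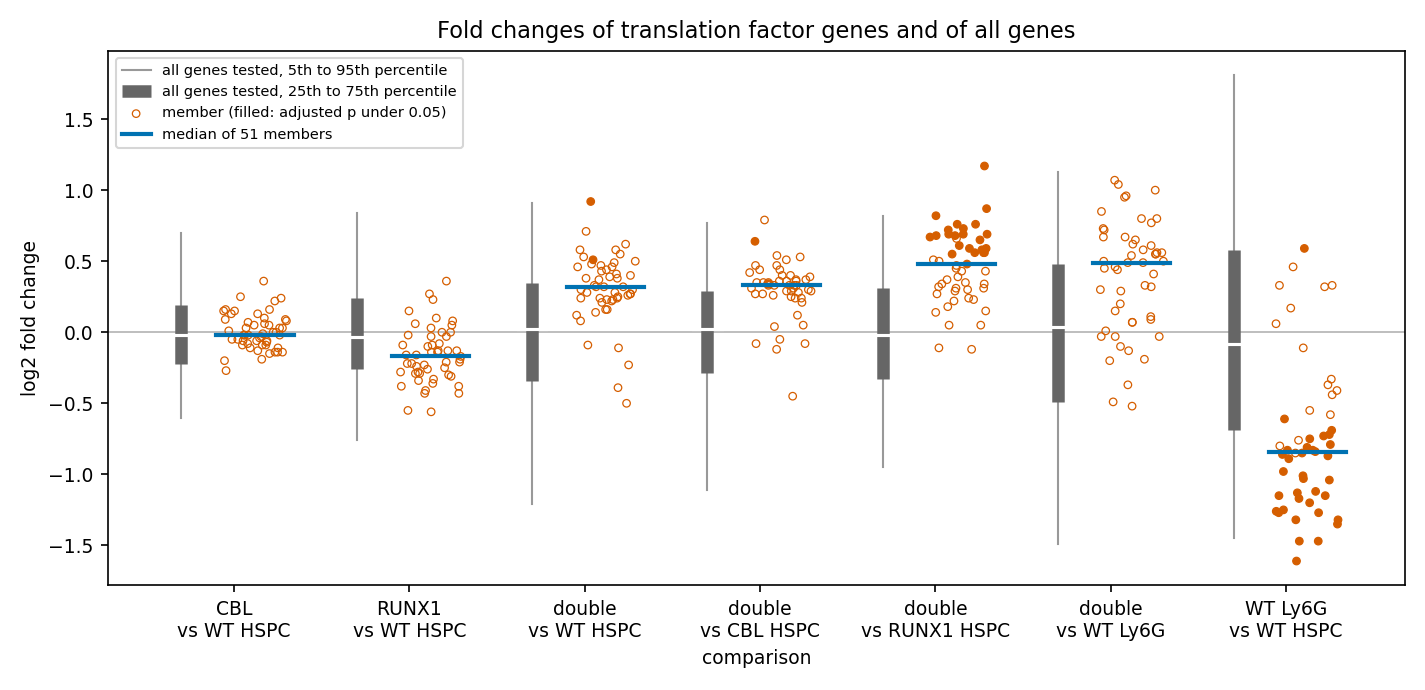
For each of 7 comparisons, points are the log2 fold changes of 51 translation factor genes (filled when called) with their median as a blue bar, beside the 5th to 95th and 25th to 75th percentiles and the median of all genes tested. The blue bar lies at -0.84 for the wild type populations and between 0.32 and 0.49 for the 4 double mutant comparisons.

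In Ly6G+ cells the double mutant had a family median of 0.49 against wild type, with 0.04 over all genes, but its libraries were far apart and nothing was called. The count was 0 of 51 members and 0 of 11744 genes (0% in each direction), and 6 members had an unadjusted p under 0.05. Both double mutant libraries lay above both wild type libraries for 35 members (32.9% of all genes) and below them for 3 (29.8% of all genes). All 14 eIF3 genes were among the 35. The plot of fold changes by comparison shows these members as open points.

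Eif2s1 was at 17.1 and 16.1 scaled TPM in wild type and at 27.7 and 24.9 in double mutant Ly6G+ cells, 0.61 ± 0.19 (adjusted p = 0.335). Eif3b was at 35.7 and 35.1 against 70.8 and 53.9, 0.77 ± 0.25 (adjusted p = 0.338). Both genes had double mutant values closer to each other than those of the elongation factors. Eef1a1 was at 2043 and 1994 in wild type and at 6213 and 2966 in double mutant Ly6G+ cells, and Eef2 at 390.4 and 368 against 943 and 474. Without the first double mutant library 3 members were called higher. Without the second, 31 were called higher and 4 lower.

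The same libraries differed in markers. Neutrophil markers summed to 56701 and 325793 scaled TPM in the double mutant Ly6G+ libraries, against 504072 and 504420 in wild type, and stem and progenitor markers to 461 and 121 against 74 and 68. S100a8 and S100a9 took 7.23% and 24.8% of the TPM, against 34.5% and 33.5%. The library with fewer neutrophil transcripts was the one with more of Eef1a1 and Eef2. The part of the mix of cells in the result was not tested.

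The difference between the double mutant effects in the populations was tested directly, as Ly6G+ minus HSPC. No member was called, 0 had an unadjusted p under 0.05, and the median was 0.15, against 0.06 over all genes, of which 0.0532% were called higher and 0.0152% lower. The smallest p-values were for Eif5 (-0.52 ± 0.24, adjusted p = 0.547) and Eef1d (0.65 ± 0.31, adjusted p = 0.556). With all 12 libraries and these errors, no difference in the double mutant effect between populations was detected for any member. This does not show that the effects are alike. Without the second double mutant Ly6G+ library, 6 members were called higher.

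Messages that begin with a pyrimidine tract (5′TOP messages) are translated under the control of mTOR, and 9 members are known as such: Eef1a1, Eef1b2, Eef1d, Eef1g, Eef2, Eif3e, Eif3f, Eif3h and Eif4b. In double mutant HSPC against wild type their median was 0.46, against 0.27 for the other 42 members, and in double mutant Ly6G+ cells 0.85 against 0.37. Against RUNX1 mutant HSPC the order was the other way, 0.31 and 0.56. There 1 and 22 genes were called higher, where 5.89% of all genes were called higher. In RUNX1 mutant HSPC against wild type the medians were 0.06 and -0.22. Eef2 was at 937 and 727 scaled TPM in RUNX1 mutant HSPC, above both wild type libraries, 0.36 ± 0.16 (adjusted p = 0.31). Between the wild type populations 5 of 9 and 29 of 42 were called lower, with medians of -0.80 and -0.85. Over all genes 22.7% were called lower.

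The ribosomal protein genes make the machine these factors serve. Between the wild type populations 73 of 83 were called lower in Ly6G+ cells and 2 higher, with a median of -1.40. Over all genes 22.7% were called lower and 16.4% higher. Fold changes in the list ran from -2.65 to 9.40, and 9.40 was also the highest over all genes tested. In double mutant HSPC 8 of 82 were called higher and 0 lower against wild type, with a median of 0.46, where 4.56% of all genes were called higher and 6.54% lower. In CBL mutant HSPC 0 of 82 were called against wild type and 1 had an unadjusted p under 0.05. There 71 had a positive fold change, with a median of 0.12, where the translation factor genes had -0.02. Their summed level was 119973 and 145065 scaled TPM in wild type HSPC, 172453 and 183041 in double mutant HSPC, and 54368 and 47688 in wild type Ly6G+ cells.

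The 10 partner genes include poly(A)-binding proteins, release and recycling factors, and the enzymes that make hypusine on eIF5A. Of these, 6 were called lower in wild type Ly6G+ cells and 0 higher, where 22.7% of all genes were called lower and 16.4% higher. Gspt1, the release factor eRF3a, was at 52.1 and 58.5 scaled TPM in wild type HSPC and at 22.8 and 22.4 in Ly6G+ cells (-1.25 ± 0.15, adjusted p = 0.000884). Dohh, a hypusine enzyme, differed by -1.17, Abce1, which recycles ribosomes, by -1.21 and Pabpc4 by -1.18. Against RUNX1 mutant HSPC, 3 of the 10 were called higher in double mutant HSPC, where 5.89% of all genes were called higher. They were Gspt1 (0.63), the release factor Etf1 (0.61) and the reinitiation factor Denr (0.85). No partner was called in the other comparisons.

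Among 24 regulators of these factors (eIF2 kinases, eIF4E-binding proteins, mTOR pathway genes), directions were mixed, and the median between the wild type populations was 0.10. In wild type Ly6G+ cells 5 were called higher and 4 lower, shares near the 16.4% and 22.7% over all genes. Ddit3, a target of the eIF2 stress response, was at 19.0 and 23.0 scaled TPM in wild type HSPC and at 47.5 and 46.2 in Ly6G+ cells (1.13 ± 0.22, adjusted p = 0.00512). Mknk1, a kinase of eIF4E, differed by 1.59, Eif2ak3, the eIF2 kinase of endoplasmic reticulum stress, by 1.33 and the eIF4E inhibitor Eif4ebp2 by 0.49. Akt1s1, an inhibitor within the mTOR complex, differed by -1.22, Rps6kb1 by -0.57, Eif2ak4 by -0.97 and Pdcd4, an eIF4A inhibitor, by -0.79.

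In double mutant against wild type HSPC, 2 regulators were called higher and 1 lower, where 4.56% of all genes were called higher and 6.54% lower. Ddit3 was at 12.96 and 12.04 scaled TPM in double mutant HSPC, below both wild type libraries (-0.70 ± 0.15, adjusted p = 0.0335). Akt1s1 was at 71.9 and 62.3 against 42.5 and 40.6 (0.68 ± 0.12, adjusted p = 0.0268). Eif4ebp3 was listed at 0 in both wild type HSPC libraries and at 2.99 and 2.92 in the double mutant ones, so no fold is given. Against RUNX1 mutant HSPC, Ddit3 (-0.76) and Mknk1 (-0.63) were called lower, where 3.2% of all genes were called lower. No regulator was called in the other comparisons.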

How the data were processed

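Bone marrow mRNA of 12 libraries was analysed from 1 table that the authors deposited. Its values are TPM, although its name speaks of counts: they are not whole numbers, and the columns sum to between 933370 and 981994. The authors made these TPM with bcl2fastq, CASAVA 1.8 and kallisto on build mm10, per the submitters' processing notes. The kallisto version, the annotation and the joining of transcripts to genes are not given in the sources used here. TPM hold no read numbers, so depth is unknown and no counting interval or floor can be given, and a share of transcripts moves when other genes move. Symbols and coordinates come from GENCODE M21 (GRCm38), and 94.8% of identifiers had a symbol. Promoters come from RefSeq (GRCm38.p6).

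TPM were scaled with unweighted trimmed mean factors (TMM, trimming 0.3 of log ratios and 0.05 of levels), and log2(scaled TPM + 1) was tested with limma 3.58.1 in R 4.3.3, with group means and moderation with a trend and robustly. The pseudocount of 1 understates changes of low genes. Genes needed 1 TPM in at least 2 libraries of the fit. The HSPC comparisons used the 8 HSPC libraries (4 residual degrees of freedom), the Ly6G+ comparison its 4 (2 degrees), and comparisons across populations all 12 (6 degrees), each with its own scaling. The per-library levels printed use the scaling of all 12. P-values are two-sided and given with Benjamini-Hochberg adjustment across every tested gene. The scripts were tested on simulated data.

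Up to 8 members called in each direction are named with their tests, smallest p first, or the top 2 by p if no member is called, besides a fixed set given as levels and, among pathway genes, up to 4 called in each direction. Other members named, those not called or nearest the threshold, were chosen after their values were seen. The members and lists were chosen with earlier results of these data known. Alternatives were RLE scaling, unscaled TPM, pseudocounts of 0.1 and 5, no filter or 5 TPM, a replicate block, other sets of libraries in the fit, and leaving out each library in turn. A group left with 1 library is assumed to vary like the others.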

Additional observations from a re-analysis of the deposited data

How the results depend on the processing

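With RLE scaling, pseudocounts of 0.1 or 5 and a filter of 5 TPM, the number of members called in each of the 8 comparisons stayed within 1.5 times its value. Unscaled TPM changed it to 45 in double mutant against wild type HSPC, 2 against RUNX1 mutant HSPC and 18 between the wild type populations, and turned Eif2s2 in RUNX1 mutant HSPC to 0.11. It also moved the split of all genes called in RUNX1 mutant HSPC from 1 higher and 5 lower to 4 and 10. Without a filter, 0, 0 and 2 members were called in double mutant against wild type, CBL mutant and RUNX1 mutant HSPC. In a fit of all 12 libraries these counts were 0, 0 and 2, and 5 in Ly6G+ cells. In fits of the compared groups alone they were 22, 9 and 0. The causes were not tested.

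Leaving out 1 library at a time gave 0 to 22 called members in double mutant against wild type HSPC, 0 to 9 against CBL mutant, 0 to 31 against RUNX1 mutant HSPC, 0 to 35 in Ly6G+ cells, and 23 to 44 between the wild type populations. It gave 0 to 3 in RUNX1 mutant HSPC (3 without its second library), 0 in CBL mutant HSPC, and 0 to 6 for the effect by cell type. In double mutant against CBL mutant HSPC the 0 came without any wild type, CBL mutant or double mutant library, and the 9 without either RUNX1 mutant library.

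The deviations of same-numbered libraries from their group means correlated at -0.01 to 0.46 over 15 pairs of groups. The correlation was over 0.1 in 6 of them and not in the other 9, so some same-numbered libraries deviated together. The highest, 0.46, was between RUNX1 mutant HSPC and double mutant Ly6G+ cells, which differ in genotype. Between HSPC and Ly6G+ cells of the same genotype it was -0.01 for wild type and 0.05 for double mutant. The numbers were not taken as pairing the samples. With the replicate number as a block, 5 members were called in double mutant against wild type HSPC in place of 2, 37 between the wild type populations in place of 35, and the count was the same in the other 6 comparisons. With 2 libraries a group and no read numbers, small differences and those of low genes cannot be resolved.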
